A study of Trametes sanguinea with 15 samples.

Results

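Of the 11782 genes in the normalised table of Pycnoporus sanguineus, a white-rot basidiomycete of which strain CIRM-BRFM 1264 was used here, 29 were raised to similar levels on all 4 growth substrates. A gene was counted when the lowest of its 4 substrate means was at least 100 normalised counts and at least 2 times its maltose mean, and when the highest substrate mean was under 2 times the lowest. Another 6 genes were set aside by name, and none of these 6 was even enough to be counted. The genes were thus selected on the 5 group means of the normalised counts, and their levels are a description and carry no test. The substrates were plant material (aspen, a hardwood, and wheat straw, from a grass) and purified material (Avicel, a microcrystalline cellulose, and a mixture of xylan and galactomannan). Mycelium of this single strain was sampled from liquid culture on day 3 in every group. By the labels, substrate cultures held 15 g/l of aspen, wheat straw, Avicel or xylan-galactomannan with 2.5 g/l of maltose, and maltose cultures held 20 g/l of maltose alone. The study's methods differ here: they call aspen, wheat straw and Avicel sole carbon sources and mention no added maltose. In either account the maltose supply was lower in the substrate cultures. The presence of a substrate and the lower maltose supply therefore cannot be told apart in any comparison with maltose. Each of the 5 groups had 3 libraries, which the study describes as independent cultures for maltose, Avicel, wheat straw and aspen; for xylan-galactomannan the sources used here do not say.

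White-rot fungi live on wood and other plant cell walls, which they open with secreted enzymes and take up as small sugars. Many fungal genes for the use of such polymers are held low while an easily used sugar is plentiful, a control known as carbon catabolite repression, and many also need an inducer released from the polymer. A gene can thus differ between a sugar medium and a polymer medium either by what is present or by what is missing. The genes described here are those whose highest substrate mean was under 2 times the lowest. Smaller differences between substrates remained in some of them.

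The 15 libraries held between 24209984 and 50428442 counts. Avicel replicate 1, xylan-galactomannan replicate 2 and maltose replicate 3 each had the lowest mean correlation with the other libraries of the group, at 0.961, 0.945 and 0.959. Values of single libraries are given in the order of replicates 1 to 3. A normalised count is a count divided by the size factor of its library, so it compares libraries within a gene; between genes, levels are compared only per kilobase of gene length. The lowest count of any of the 29 genes in any library was 14, and their summed counts over the 15 libraries started at 1791.

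The lowest substrate mean reached 100 in 9019 genes, of which 183 were also at least 2 times the maltose mean. Of these 183, 29 were even, 6 were set aside by name and 148 were raised on all 4 substrates but unevenly. The ratio of the lowest substrate mean to the maltose mean had a median of 2.47 over the 29 genes, with a range of 2.01 to 13.2. It lay below 2.5 in 15 genes, from 2.5 to below 4 in 7 and at 4 or above in 7. The highest substrate mean was 1.68 times the lowest at the median (range 1.30 to just under the limit of 2), with 8 genes below 1.5 and 21 at or above it. The 29 genes therefore crowd against both limits of the rule, and only a few lie far inside them. Over the 9019 genes that reached the level limit, the highest substrate mean was 1.96 times the lowest at the median, so evenness by itself was common.

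**Figure D1:**
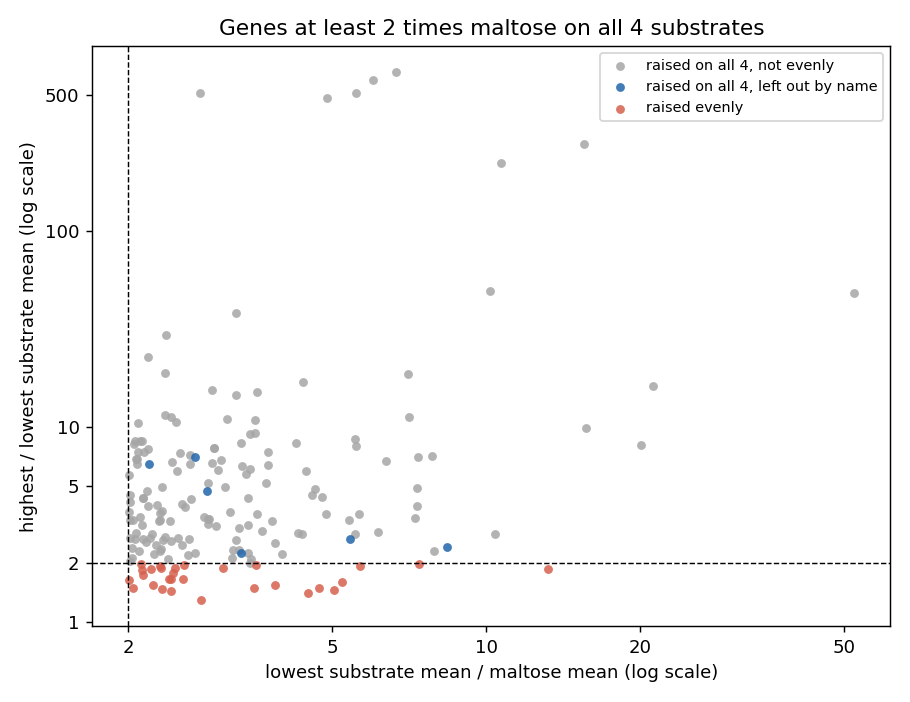
Each point is 1 of the 183 genes at least 2 times higher on all 4 substrates than on maltose, with the ratio of the lowest substrate mean to the maltose mean on the x axis and the ratio of the highest to the lowest substrate mean on the y axis (log scales, no units). Dashed lines mark the limits of 2; the 29 evenly raised genes lie below the horizontal line, with ratios to maltose from 2.01 to 13.2, and the 148 unevenly raised genes reach ratios between substrates of 649.8.

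Small shifts at these limits would change which genes are counted. At the level limit, 1597965 lay just inside with a lowest substrate mean of 106, followed by 446164 with 138, and 1674393 and 1173969 lay outside with 64.6 and 57.0. For the ratio to maltose, 1588265 and 1607621 lay inside at 2.01 and 2.04, and 1595741 and 1597138 outside at 1.98 and 1.93. For evenness, 1721241 and 1589458 lay inside with the highest mean 1.996 and 1.99 times the lowest, and 1676327 and 1580843 lay outside at 2.02 and 2.06.

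The study lists functions or co-expression groups for 166 genes of this strain, and 2 of the 29 evenly raised genes are among them. Gene 1682233 is assigned to GH13 subfamily 1, a glycoside hydrolase family that holds the fungal alpha-amylases, enzymes that cut starch and maltodextrins, the polymers from which maltose itself is released. The study places it in a co-expression group of 11 genes, of which 4 were raised on all 4 substrates. Its normalised counts were 9935, 13715 and 12506 on aspen, 14169, 12957 and 14144 on wheat straw, 16456, 6828 and 6764 on Avicel and 9843, 5264 and 6741 on xylan-galactomannan, against 1835, 2122 and 3183 on maltose. All 12 substrate libraries exceeded the highest maltose library. Wheat straw cultures were the highest by mean and agreed closely with each other, whereas the Avicel mean of 10016 ± 5577 (SD, n = 3) rested on replicate 1, which was more than 2 times the other Avicel libraries; without it the Avicel mean was 6796. The log2 fold change of the mean of the 4 substrates over maltose, fitted with edgeR, was 2.15 ± 0.32 (SE).

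The other listed gene, 1561531, has no assigned function and belongs to a co-expression group of 11 genes in the study's map of the transcriptome, of which 10 were raised on all 4 substrates, 3 of these being among the genes set aside by name. Its normalised counts were 2680.2, 2145 and 2459 on aspen, 2024, 1839 and 1616 on wheat straw, 2537, 2278 and 2074 on Avicel and 2533, 1511 and 3987 on xylan-galactomannan, against 173, 192 and 722 on maltose. The substrate libraries all lay above the maltose libraries, and the means were close, with the highest 1.47 times the lowest. Maltose replicate 3 was more than 2 times maltose replicates 1 and 2, and leaving it out brought the maltose mean to 182, compared with 362 ± 312 (SD, n = 3) over all 3 libraries. The lowest substrate mean was then 10 times the maltose mean in place of 5.04. Gene 1561531 had a log2 fold change of 2.67 ± 0.43 (SE) for the mean of the substrates over maltose, and 3.64 without maltose replicate 3.

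The remaining listed groups contributed none of the 29 genes. Of the 166 listed genes, 57 were raised on all 4 substrates, the 6 genes set aside by name included, and in these 57 the highest substrate mean was 5.92 times the lowest at the median (6.10 in the 51 without those 6). The lists were drawn up by the study on libraries that include those of maltose, Avicel, aspen and wheat straw used here, and are not independent of them. For its aspen and wheat straw lists the study kept co-expression groups high on plant material but not on maltose or Avicel. This works against genes raised evenly on Avicel too, so nothing is read from their absence. Enzymes acting on cellulose (6 listed, 1 raised on all 4 substrates) and on hemicellulose (7 listed, 4 raised) had no evenly raised member. Enzymes acting on pectin and other glycans with uronic acids (6 listed, 5 raised), called the uronide group here, had none either. Of the raised genes, 1 of the hemicellulose group and 2 of the uronide group are among those set aside by name. The same held for enzymes of fungal glycans such as chitin, wall glucans and the glycans of glycoproteins (11 listed, 1 raised), facilitator transporters (9 listed, 2 raised), proteases (5 listed, 3 raised), UDP-glycosyl transferases (2 listed, both raised) and cytochromes P450 (6 listed, 0 raised). Both listed GH3 genes were raised and are among those set aside by name. The 5 raised genes of the uronide group differed 7.998 times between substrates at the median (18.6 times in the 3 not set aside by name). The 1 raised cellulose-active gene differed 506 times. The other 27 evenly raised genes have no function in the sources used here and are given by their protein IDs.

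The mean level over the 4 substrates ranged from 129 to 151531 normalised counts and was below 1000 in 10 genes. Per kilobase, 1576884 was the most abundant, with a substrate mean of 62513 and a maltose mean of 21553 normalised counts per kilobase. It ranked between 3 and 4 among all genes by count in the aspen libraries, and took 0.642% to 0.757% of their counts. Its normalised counts were 176273, 237787 and 234289 on aspen, 206582, 77308 and 63000.4 on wheat straw, 80713, 166233 and 149266 on Avicel and 125620.0, 146110.0 and 155194 on xylan-galactomannan, against 75183, 52033 and 29517 on maltose. Aspen was the highest substrate by mean, and wheat straw replicate 1 was more than 2 times the other wheat straw libraries. Wheat straw replicate 3 lay below maltose replicate 1, so 11 of 12 substrate libraries exceeded the maltose range. Without wheat straw replicate 1 the lowest substrate mean of 1576884 was 1.34 times the maltose mean in place of 2.21. The highest substrate mean was then 3.08 times the lowest in place of 1.87, so the gene failed both limits. Without maltose replicate 3 the ratio to maltose was 1.82, also under the limit.

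Gene 1672909, of 417 bases the shortest of the 29, came second per kilobase with 34641, narrowly ahead of 1607621 with 34184. For 1672909 the values were 10383, 8796 and 8495 on aspen, 19105, 22045 and 12508 on wheat straw, 26258, 9003 and 9929 on Avicel and 24051, 2489.9 and 20279 on xylan-galactomannan, against 75.3, 307 and 4504 on maltose. Replicates disagreed widely here: xylan-galactomannan replicate 2 was far below its group, and maltose replicate 3 was more than 2 times the other maltose libraries and above that xylan-galactomannan library. Gene 1607621 had a narrower spread, with 59214, 57498 and 48095 on aspen, 78481, 69428 and 78275 on wheat straw, 59382, 52046 and 51219.7 on Avicel and 57071, 35585 and 58861 on xylan-galactomannan, against 15469.8, 22946 and 35699.7 on maltose. Wheat straw libraries were the highest, and maltose replicate 3 overlapped with xylan-galactomannan replicate 2. Without maltose replicate 3 the lowest substrate mean of 1672909 was 48.2 times the maltose mean in place of 5.66. These genes had log2 fold changes of 3.13 ± 1.06 for 1672909 (6.20 without maltose replicate 3) and 1.24 ± 0.25 for 1607621 (SE).

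Next per kilobase were 1676313, with a substrate mean of 7402, 1682233 (described above, 6727) and 1576449 (4862). Cultures gave 3999, 5283 and 6039 on aspen, 6977, 5563 and 5413 on wheat straw, 6103, 8939.8 and 8639 on Avicel and 3764, 4522 and 7774 on xylan-galactomannan, against 647, 1225 and 2084 on maltose for 1676313. Avicel was its highest substrate and every substrate library exceeded maltose. For 1576449 they gave 5579.9, 7358 and 8733 on aspen, 8003, 3376 and 2816 on wheat straw, 2599, 12417 and 11785 on Avicel and 3469, 5304 and 4877 on xylan-galactomannan, against 1870.3, 1559 and 1897 on maltose. Avicel replicates 2 and 3 stood highest and Avicel replicate 1 lowest of all 12 substrate libraries for this gene, yet even that library lay above the maltose range.

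**Figure D2:**
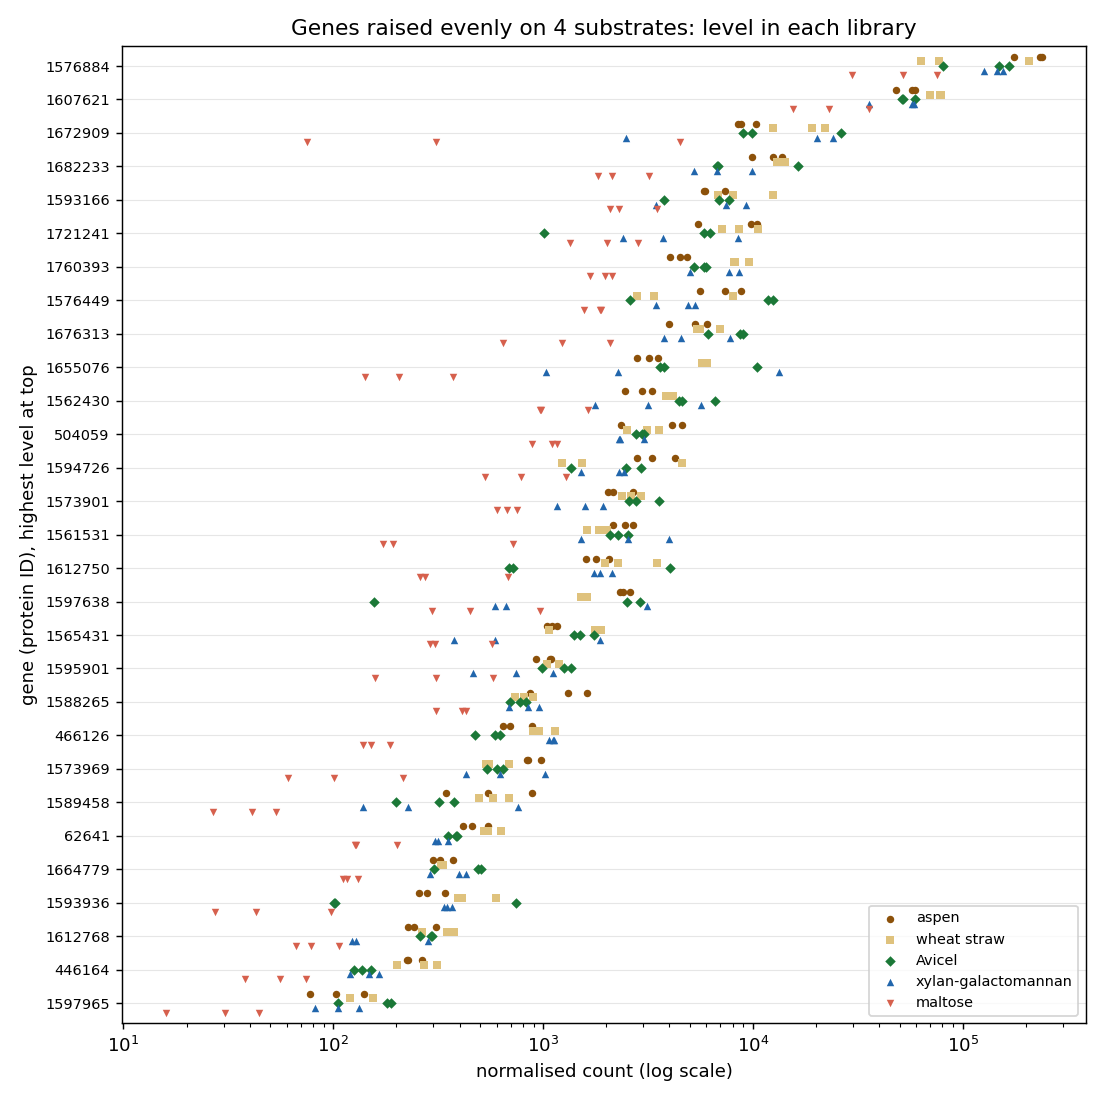
Normalised counts (x axis, log scale) of the 29 genes (y axis, by protein ID, ordered by level) in each of the 15 libraries; each point is 1 library, coloured by group. In 20 genes all 12 substrate libraries lie to the right of the 3 maltose libraries, and in 9 genes the groups overlap.

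The largest ratio to maltose belonged to 1655076, whose lowest substrate mean, on aspen, was 13.2 times the maltose mean. Its normalised counts were 3534, 2788 and 3179.9 on aspen, 5699.9, 5841 and 6057 on wheat straw, 10451, 3623 and 3752 on Avicel and 1033, 13297 and 2262 on xylan-galactomannan, against 141, 206 and 371 on maltose. Maltose cultures were uniformly low, whereas the 3 xylan-galactomannan libraries spanned from 1033 to 13297 and Avicel replicate 1 was more than 2 times its group. The similarity of its wheat straw, Avicel and xylan-galactomannan means, 5866, 5942 and 5531, thus came from libraries that differed widely. Without xylan-galactomannan replicate 2 the lowest substrate mean was that on xylan-galactomannan, at 1648, and the ratio to maltose was 6.88. The highest substrate mean was then 3.61 times the lowest in place of 1.88, so the gene failed the evenness limit. The fitted log2 fold change over maltose was 4.38 ± 0.76 (SE), the highest of the 29.

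Gene 1589458 followed at 7.39 times, with 344, 887 and 549 on aspen, 577, 686 and 495 on wheat straw, 199.7, 375 and 319.9 on Avicel and 227, 138 and 757 on xylan-galactomannan, against 41.1, 26.8 and 53.1 on maltose. Maltose libraries were the lowest for this gene, the means on aspen and wheat straw were the highest, and the fit gave a log2 fold change of 3.47 ± 0.55 (SE). Without xylan-galactomannan replicate 3 its ratio to maltose was 4.52, and its highest substrate mean was 3.26 times the lowest, above the evenness limit. Gene 1593936, at 5.22 times, had 341, 255 and 279 on aspen, 393, 411 and 597 on wheat straw, 745, 102 and 101 on Avicel and 336, 369.7 and 347 on xylan-galactomannan, against 27.4, 42.7 and 97.4 on maltose. Avicel replicate 1 was the highest library of 1593936 and Avicel replicates 2 and 3 the lowest on any substrate, only just above maltose replicate 3. Its ratio to maltose was 1.82, under the limit, without Avicel replicate 1 and 8.32 without maltose replicate 3. Gene 1573969, at 4.71 times, had 972, 833 and 844 on aspen, 532, 552 and 686 on wheat straw, 647, 540.1 and 604 on Avicel and 427, 1021 and 621 on xylan-galactomannan, against 100.4, 61 and 214 on maltose, and its aspen libraries stood above all wheat straw and Avicel libraries. Without maltose replicate 3 this ratio was 7.31.

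**Figure D3:**
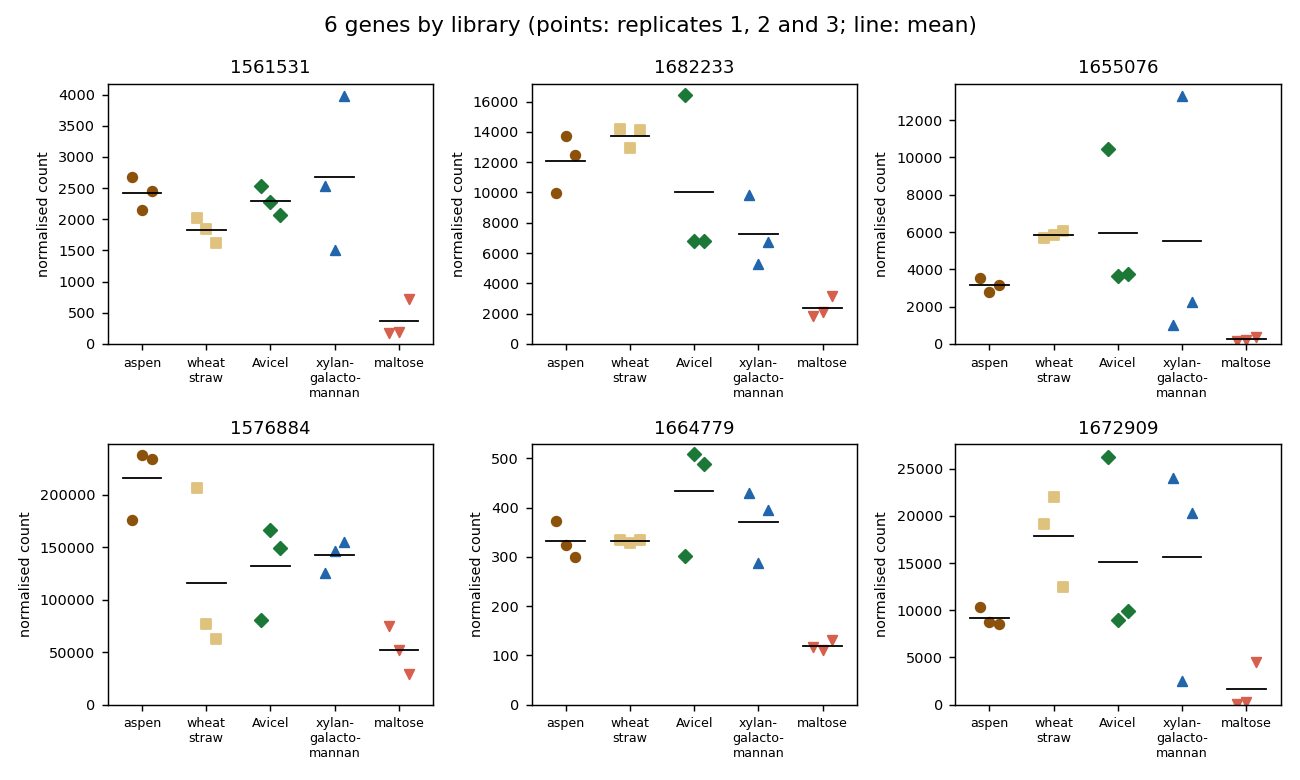
Normalised counts (y axis, linear, from 0) of 6 genes by group: the 2 listed genes 1561531 and 1682233, the gene with the largest ratio to maltose (1655076), the most abundant per kilobase (1576884), the most even (1664779) and the gene with the widest spread in maltose (1672909). Points are replicates 1, 2 and 3 from left to right and lines are group means; Avicel replicate 1 is far from its group in 1682233, 1655076, 1576884 and 1672909, and maltose replicate 3 is the highest of its group in all but 1576884.

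The most even gene was 1664779, with the highest substrate mean 1.30 times the lowest. Its libraries gave 373, 324 and 300.1 on aspen, 334, 327 and 334 on wheat straw, 302, 508 and 488 on Avicel and 429, 288 and 396 on xylan-galactomannan, against 116, 111 and 131 on maltose. Replicates differed least on wheat straw and most on Avicel, and the substrates did not overlap with maltose. Gene 1612750 followed at 1.42 times, with 2068, 1605 and 1793 on aspen, 2265, 1973 and 3489 on wheat straw, 4043, 721 and 688 on Avicel and 1751, 2126 and 1864 on xylan-galactomannan, against 274, 259.8 and 679 on maltose. Its evenness depended on Avicel replicate 1: without it the Avicel mean was 704, compared with 1817 over 3 libraries, and the highest substrate mean was then 3.66 times the lowest in place of 1.42. The ratio of 1612750 to maltose was then 1.74, under the limit, in place of 4.50. Gene 504059, at 1.45 times, had 4606, 2359.6 and 4110.4 on aspen, 3575, 2509.6 and 3136 on wheat straw, 2780.4, 3009 and 2962 on Avicel and 2322, 3030.5 and 2296 on xylan-galactomannan, against 1107, 884 and 1163 on maltose. Its libraries overlapped between substrates and stayed apart from maltose. Log2 fold changes of the substrate mean over maltose were 1.61 ± 0.19 for 1664779, 2.33 ± 0.54 for 1612750 and 1.53 ± 0.19 for 504059 (SE).

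Levels on plant material, as the mean of aspen and wheat straw, were above those on purified material in 21 genes and below in 8. In 8 genes both plant means were above both purified means, and in 1 gene both were below. Wheat straw was the highest substrate in 12 genes, Avicel in 8, aspen in 7 and xylan-galactomannan in 2. The lowest was xylan-galactomannan in 12, Avicel in 7, aspen in 6 and wheat straw in 4. The same counts were not made over all genes or over the unevenly raised genes. Whether the evenly raised genes differ from other genes in this respect was therefore not tested, and no preference for plant material is read from these counts. The ratio of plant to purified means was largest in 1721241 (1.87) and 446164 (1.77), and smallest in 1655076 (0.787) and 1562430 (0.79). For 1721241 the values were 5479.9, 10462 and 9738 on aspen, 10563, 8542 and 7087 on wheat straw, 1009, 6248 and 5863 on Avicel and 2398, 8472 and 3727 on xylan-galactomannan, against 2024, 2842 and 1337 on maltose. Avicel replicate 1 was below the whole maltose range for this gene, and xylan-galactomannan replicate 1 below maltose replicate 2. For 446164, a gene near the level limit, they were 226, 225 and 264 on aspen, 272, 312 and 201 on wheat straw, 137, 152 and 125 on Avicel and 120.1, 149 and 166 on xylan-galactomannan, against 55.9, 37.8 and 73.8 on maltose. All aspen and wheat straw libraries of 446164 exceeded all Avicel and xylan-galactomannan libraries, and these exceeded maltose. For 1562430 they were 2449.8, 2950.0 and 3315 on aspen, 3944, 4178 and 3871 on wheat straw, 6623, 4587 and 4437 on Avicel and 5655, 1764 and 3149 on xylan-galactomannan, against 972, 965 and 1634 on maltose, with Avicel highest by mean.

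All 12 substrate libraries exceeded all 3 maltose libraries in 20 of the 29 genes, whereas 2.89% of the 11782 genes showed this. The ratio that chose the genes fixes most of that difference, so nothing is read from it. The 9 genes that overlapped were 1576884, 1607621, 1672909, 1593166, 1721241, 1594726, 1597638, 1565431 and 1595901. Gene 1597638 overlapped most, with 2319, 2594 and 2413 on aspen, 1527, 1624 and 1518 on wheat straw, 157, 2901 and 2498 on Avicel and 590.4, 3119 and 664 on xylan-galactomannan, against 297, 450.1 and 967 on maltose. Avicel replicate 1 was below every maltose library for 1597638, and xylan-galactomannan replicates 1 and 3 were below maltose replicate 3. The ratio to maltose of 1597638 was 2.55 over all libraries. It was 1.10, under the limit, without xylan-galactomannan replicate 2 and 3.90 without maltose replicate 3. In 1595901 and 1593166 the overlap came from single libraries below maltose replicate 3, at 461 against 574 for 1595901 and at 3448 against 3487 for 1593166.

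The remaining overlapping genes had single substrate libraries within the maltose range. Gene 1593166 had 5921, 5840.1 and 7333 on aspen, 8014, 6788 and 12519 on wheat straw, 3759.6, 7728 and 6857 on Avicel and 3448, 9279.8 and 7453 on xylan-galactomannan, against 2082, 2310.4 and 3487 on maltose, with wheat straw highest by mean. Gene 1594726 had 2795, 4258 and 3319 on aspen, 4587, 1523 and 1223 on wheat straw, 1362, 2931 and 2487 on Avicel and 1514, 2306 and 2426 on xylan-galactomannan, against 1287, 787 and 528 on maltose, and wheat straw replicate 3 lay below maltose replicate 1. Wheat straw replicate 1 was the highest library of 1594726. Without it the ratio to maltose of this gene was 1.58, under the limit, in place of 2.40. Gene 1565431 had 1167, 1099.7 and 1048 on aspen, 1887, 1761 and 1070.0 on wheat straw, 1409.6, 1749 and 1502 on Avicel and 590.4, 374 and 1857 on xylan-galactomannan, against 572, 290.3 and 304 on maltose, and xylan-galactomannan replicate 2 lay below maltose replicate 1. Gene 1595901 had 1073, 1093 and 927 on aspen, 1040.4, 1186 and 1043 on wheat straw, 991, 1362 and 1263 on Avicel and 743, 461 and 1116 on xylan-galactomannan, against 157, 309 and 574 on maltose. Apart from xylan-galactomannan replicates 1 and 2, its substrate libraries were narrow, and its maltose libraries were not. For 1565431 the ratio to maltose was 1.24, under the limit, without xylan-galactomannan replicate 3, in place of 2.42.

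Among the genes without overlap, 1573901 had 2689, 2048 and 2154 on aspen, 2376, 2635 and 2938 on wheat straw, 3549, 2764 and 2569 on Avicel and 1162, 1926 and 1579 on xylan-galactomannan, against 669.8, 601 and 747 on maltose, with xylan-galactomannan below every library of the other substrates. Gene 1588265, at the limit of the ratio to maltose, had 1612, 867 and 1309 on aspen, 892, 730.4 and 810.1 on wheat straw, 693, 779 and 831 on Avicel and 687, 957 and 851 on xylan-galactomannan, against 409, 309.8 and 428 on maltose. Its level was highest on aspen by mean, and the other substrates were close together. Gene 1612768 had 228, 243 and 309.9 on aspen, 377, 347 and 264 on wheat straw, 258, 291 and 296 on Avicel and 129, 123 and 282 on xylan-galactomannan, against 66.2, 78.1 and 106 on maltose, and xylan-galactomannan replicate 3 stood apart from the other libraries on that substrate. The least abundant gene, 1597965, had 140.0, 77.6 and 103 on aspen, 155, 121 and 154 on wheat straw, 106, 189 and 181 on Avicel and 132, 81.9 and 105 on xylan-galactomannan, against 16, 30.5 and 44.3 on maltose. Its libraries overlapped between all 4 substrates and lay above maltose. In 1573901, 1588265, 1612768 and 1597965 the log2 fold changes of the substrate mean over maltose were 1.78 ± 0.17, 1.24 ± 0.18, 1.62 ± 0.27 and 2.09 ± 0.33 (SE).

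Across the 11724 genes tested with edgeR (adjusted p under 0.05 by Benjamini-Hochberg and a log2 fold change beyond 1), the genes called higher than on maltose numbered 27 of the 29 on aspen (14.4% of all genes tested), 27 on wheat straw (9.8%), 23 on Avicel (3.66%) and 23 on xylan-galactomannan (5.87%). All 4 contrasts were called in 21 genes (1.19%) and the mean of the 4 substrates in 28 (6.35%). The 4 contrasts share their maltose libraries and were used to choose the genes, so these counts describe the choice. None of the 29 was called lower in any of them. The gene called in no contrast was 1597638, with a log2 fold change of 1.65 ± 0.71 (SE) for the mean of the substrates. Gene 1672909 was called in 1 contrast despite a log2 fold change of 3.13 ± 1.06 (SE). Genes 1576884, 1594726 and 1721241 were called in 2 contrasts, and 1565431, 1576449 and 1588265 in 3.

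Between substrates, edgeR called 0 of the 29 genes in each of the 6 pairs. The share of all genes called was 13.0% for aspen over wheat straw, 27.6% for aspen over Avicel, 26.2% for aspen over xylan-galactomannan, 12.6% for wheat straw over Avicel, 21.5% for wheat straw over xylan-galactomannan and 13.6% for Avicel over xylan-galactomannan, and 49.5% were called in at least 1 pair. A call needed a log2 fold change beyond 1, and the evenness limit had already held the substrate means of each gene closer than that. Smaller differences could not be called, whatever their error. A count at or near 0 was therefore built in for edgeR and DESeq2 alike. DESeq2 also called 0, which for this reason says nothing further about evenness. Leaving out Avicel replicate 1 gave 5 calls among the 29 genes in edgeR. At an unadjusted p under 0.05 in edgeR, 10 of the 29 genes differed in at least 1 pair, compared with 85.2% of all genes tested. The evenness limit held these differences down too, so a lower share was built in and nothing is read from it. The log2 fold changes of the 29 genes in the pairs reached at most 1.02 in size, and their SE had a median of 0.355.

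Equal means did not always stand for equal libraries. On the log2 scale, the SD between the 4 substrate means had a median of 0.41 over the 29 genes, and the SD between replicates within a substrate had a median of 0.38. The corresponding medians were 0.44 and 0.25 for the 9019 genes that reached the level limit, and 1.02 and 0.57 for the 148 unevenly raised genes. The evenness limit held down the SD between substrates and not that between replicates, so nothing is read from the counts that follow. The SD between substrates was the smaller in 21 genes, and in 8 of the 29 genes it was smaller even than the error of a mean of 3 libraries. In the other 8 genes (1607621, 1760393, 1573901, 1588265, 466126, 62641, 1612768 and 446164) the substrates differed by more than the replicates, although the largest mean was under 2 times the smallest. Gene 466126 was an example, with 641, 887 and 695 on aspen, 894, 1138 and 955 on wheat straw, 591, 475 and 620.4 on Avicel and 1069, 1124 and 1109 on xylan-galactomannan, against 151, 187 and 139 on maltose. Its xylan-galactomannan libraries agreed closely and exceeded all aspen and Avicel libraries. Gene 62641 had 416, 459 and 545 on aspen, 632, 524 and 548 on wheat straw, 391, 353 and 384 on Avicel and 304, 317 and 351 on xylan-galactomannan, against 128, 127 and 201 on maltose, highest on wheat straw and lowest on xylan-galactomannan by mean. Gene 1760393 had 4486, 4008 and 4865 on aspen, 8079, 8199.6 and 9572 on wheat straw, 5974, 5829.7 and 5249 on Avicel and 7693, 5019.6 and 8605 on xylan-galactomannan, against 1676, 1981 and 2141 on maltose, and its wheat straw libraries were all above its aspen and Avicel libraries.

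Replicates of the evenly raised genes differed more than those of most genes. The median SD of 0.38 within substrates compares with 0.25 for the 9019 genes that reached a lowest substrate mean of 100, and with 0.57 for the 148 unevenly raised genes. Within maltose the corresponding medians were 0.54, 0.24 and 0.45. By substrate, the median over the 29 genes was 0.41 on xylan-galactomannan, 0.32 on Avicel, 0.21 on aspen and 0.20 on wheat straw. The largest SD of any of the 29 genes in any group was that of 1672909 on maltose, at 2.99.

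Much of the spread on maltose lay in 1 library. Maltose replicate 3 was the highest of its group in 24 of the 29 genes, compared with 43.6% of the 9760 genes with a mean normalised count of at least 100 and 56.1% of the 148 unevenly raised genes. It was at least 2 times both other maltose libraries in 6 genes (1561531, 1573969, 1593936, 1597638, 1612750 and 1672909), as were 4.45% of genes and 14.2% of the unevenly raised ones. It was the lowest of its group in 4 genes (1576884, 1594726, 1721241 and 466126), compared with 39.3% of the 9760 genes and 24.3% of the unevenly raised ones. Over the 29 genes, this library deviated from its group by a median of 0.45 on the log2 scale, and over all genes by 0.02. What set this culture apart was not tested.

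Other libraries stood apart in smaller sets of genes. Avicel replicate 1 was at least 2 times both other Avicel libraries in 5 genes (1593936, 1612750, 1655076, 1672909 and 1682233) and at least 2 times below both in 3 (1576449, 1597638 and 1721241), as in 5.62% and 7.84% of the 9760 genes and in 12.8% and 32.4% of the unevenly raised ones. Wheat straw replicate 1 was at least 2 times both others in 1576449, 1576884 and 1594726, as in 0.686% of the 9760 genes and 0.676% of the unevenly raised ones. Xylan-galactomannan replicate 3 was so in 1565431, 1589458 and 1612768 (0.461% and 4.05%). Xylan-galactomannan replicate 2 was so in 1597638, 1655076 and 1721241 (6.55% and 22.3%), a share of the 29 genes near that of the 9760. Some genes shared these departures. Over the 15 deviations from the group means, the correlation was 0.98 between 1593936 and 1612750, 0.98 between 1576884 and 1594726, 0.94 between 1607621 and 1672909, and 0.93 between 504059 and 1588265. These pairs share every library, and over all 406 pairs of the 29 genes the median correlation was 0.11, with 15 above 0.8 and 1 below -0.8.

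**Figure D4:**
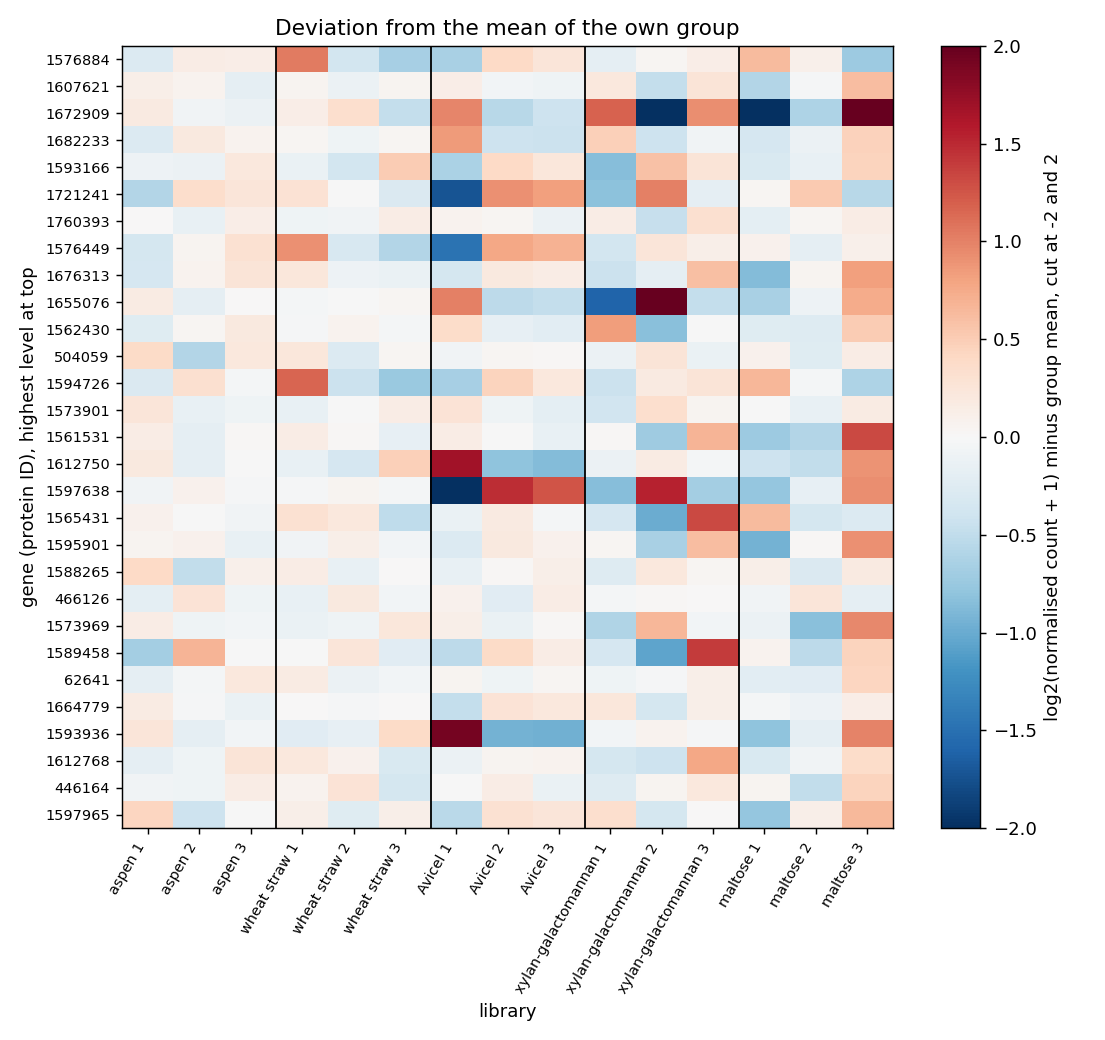
Difference of each library from the mean of its own group, on the log2(normalised count + 1) scale (colour), for the 29 genes (rows, ordered by level) and 15 libraries (columns, by group). Maltose replicate 3 is red in most rows, being the highest of its group in 24 genes, and Avicel replicate 1 is strongly red in some rows and strongly blue in others.

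Whether a gene met the rule often depended on a single library. When each library was left out in turn, between 24 and 50 genes met the rule, and 6 of the 29 genes (1561531, 1573969, 1593166, 1664779, 1676313 and 504059) met it in all 15 selections. The genes kept least often were 1721241, in 8 of 15, and 1589458, in 9. Leaving out maltose replicate 3 gave 50 genes, of which 27 were among the 29, and 250 genes in place of 183 were then at least 2 times the maltose mean on all substrates. Leaving out xylan-galactomannan replicate 3 gave 24 genes, 22 of them shared. With medians in place of means, 27 genes met the rule and 15 were shared. Avicel replicate 1, xylan-galactomannan replicate 2 and maltose replicate 3 left out together gave 41 genes, of which 19 were shared.

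**Figure D5:**
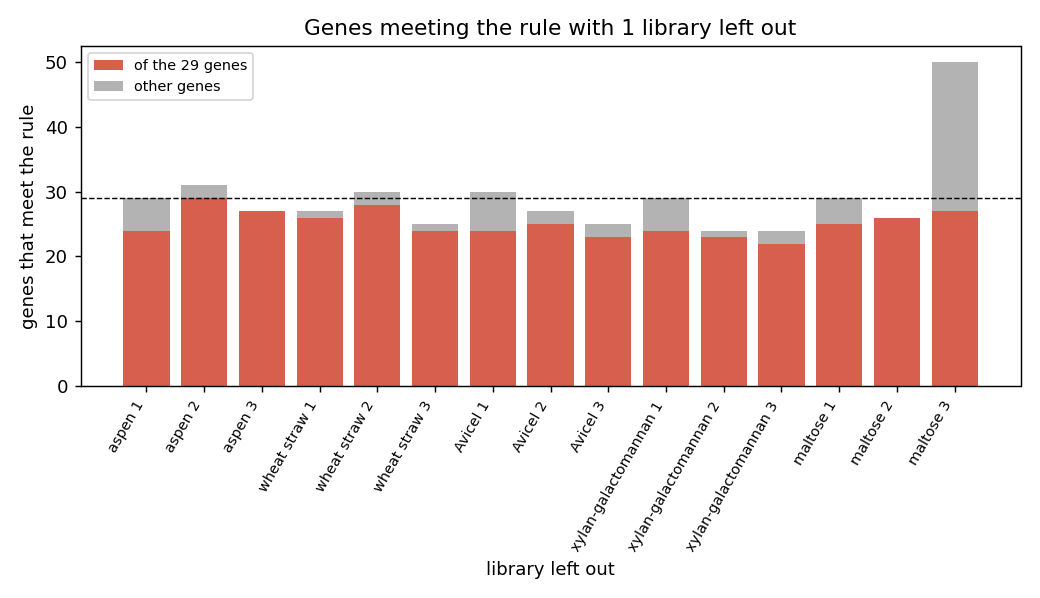
Number of genes that met the rule (y axis) when the library named on the x axis was left out; red bars count genes among the 29, grey bars other genes, and the dashed line marks 29. The total stays between 24 and 31 except without maltose replicate 3, when it is 50.

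Length was not used by the rule. The 29 genes had a median length of 1602 bases (range 417 to 2917), the unevenly raised genes 1239 and the 9019 genes above the level limit 1440. Together the 29 genes took between 1.14% and 1.20% of all counts in aspen libraries, between 0.771% and 1.16% in wheat straw, between 0.491% and 0.780% in Avicel and between 0.624% and 0.738% in xylan-galactomannan libraries, against 0.215% to 0.297% in maltose libraries. Without 1576884, the most abundant, the other genes took between 0.438% and 0.494% in aspen libraries, between 0.554% and 0.566% in wheat straw, between 0.326% and 0.355% in Avicel and between 0.285% and 0.356% in xylan-galactomannan libraries, against 0.0894% to 0.146% in maltose libraries. The order of the substrates by this share thus turned on 1 gene, since the mean share was higher on aspen than on wheat straw with 1576884 and lower without it.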

How the data were processed

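Polyadenylated RNA was sequenced as 150 bp read pairs in 15 libraries. Per the labels and the study's methods, the authors filtered and trimmed the reads, aligned them with TopHat2 and obtained counts per gene model with HTSeq. Tool versions, genome build and strand setting: not given in the sources used here. In the files, the deposited count table held 14165 gene models. The deposited normalised table held a signal for 11782 of them, equal to each count over its library's size factor; for this step DESeq 1.5 is named in the submitters' processing notes. The other 2383 were not used in the selection. All per-library columns were matched to samples. Deposited counts from 1 to 20 were mostly even numbers, which was met by an alternative with counts divided by 2.

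The 29 genes were found from group means of the normalised table. The genes and lists were chosen with earlier results of these data known. Genes are named by these rules: those listed by the study, the 6 highest per kilobase, the 6 with the largest ratio to maltose, the 4 most even, the extremes of plant over purified means, and those next to each limit; others that are named were chosen after their values were seen. Counts were fitted with edgeR 4.0.16 in R 4.3.3 (quasi-likelihood test, TMM scaling, filterByExpr, 11724 genes, all 5 groups in 1 fit, p-values adjusted by Benjamini-Hochberg over all genes tested). The fit was tested on simulated data. Alternatives were DESeq2 1.42.0, other scalings, no filter, a replicate block, and each library left out. Deviations within groups used log2(value + 1). No gene matched the RefSeq table of another strain, so no sequence is shown.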

Additional observations from a re-analysis of the deposited data

How the results depend on the processing

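The number of genes that met the rule was 19 with counts divided by library totals only (10 of them among the 29), 8 with an evenness limit of 1.5, 11 with a ratio to maltose of at least 3, and 24 to 50 with single libraries left out, the 50 coming without maltose replicate 3. Without Avicel replicate 1, xylan-galactomannan replicate 2 and maltose replicate 3 together, an alternative chosen after seeing the data, it was 41. Among the 29 genes, edgeR called 10 in some pair of substrates with library totals only, 1 with counts divided by 2, 8 without the 3 libraries named, and 0 to 5 with single libraries left out, the 5 coming without Avicel replicate 1; the cause was not tested. The counts called higher than on maltose spanned, with single libraries left out, 26 to 28 (aspen), 23 to 27 (wheat straw), 18 to 25 (Avicel), 16 to 24 (xylan-galactomannan), 15 to 23 (all 4) and 21 to 28 (mean of the 4). The lowest of each except aspen came only without maltose replicate 2. Under library totals only, all genes together had a median log2 fold change over maltose of 0.38 on aspen and 0.29 on wheat straw. Same-numbered deviations correlated between -0.46 and 0.48 over 30 pairs, with a median of -0.01. Between Avicel and xylan-galactomannan the correlation was 0.48 for replicate 1, 0.48 for replicate 2 and -0.20 for replicate 3. Libraries with different numbers were not compared, so whether replicate numbers pair the samples stays undecided. With the replicate number as a block, 28, 26, 22 and 22 genes were called on aspen, wheat straw, Avicel and xylan-galactomannan, 20 on all 4, 28 for the mean and 0 in any pair. Of the named genes, the call for the mean of the 4 was lost in 13 of the 15 fits without 1 library for 1672909, in 9 for 1721241, in 2 for 1576884 (without maltose replicate 2 or 3), and in 1 each for 1576449 and 1612750 (without maltose replicate 2) and 1607621 (without maltose replicate 1). No result reversed.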
